A study of Mus musculus with 4 samples.

Results

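Genes of primitive and definitive endoderm were followed in mouse embryonic stem cells (ESCs) after induced deletion of Arid1a, which encodes a DNA-binding subunit of the BAF chromatin remodelling complex. Members were chosen by gene name, and the set holds 10 genes: the transcription factors Gata4, Gata6, Sox17, Sox7 and Foxa2, the receptor Pdgfra, and the effectors Dab2, Sparc, Lrp2 and Cubn. Rows with these gene names gave values for 9 of the 10 among 14382 genes, and Foxa2 was not analysed here. All 4 libraries came from ESCs with floxed Arid1a alleles and CreERT2, a Cre recombinase that enters the nucleus once 4-hydroxytamoxifen (4-OHT) is bound. In 2 of them the cells had received ethanol, and in the other 2 they had received 1 µM 4-OHT, each for 24 hours, and polyA RNA was taken 72 hours after treatment. The ethanol cells therefore carry the same floxed alleles and the same recombinase, and deletion of Arid1a and exposure to 4-OHT itself cannot be told apart. The promoter that drives CreERT2, and whether the cells are a single clone, are not stated by the labels. The cells were grown with serum and LIF on irradiated fibroblast feeders, so that some RNA of each library can come from feeders.

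Primitive endoderm forms in the inner cell mass when FGF signals through ERK raise GATA6 in cells that lose NANOG. GATA6 then acts with GATA4, SOX17 and SOX7, and PDGFRA marks the lineage on the cell surface. Its derivatives are the visceral endoderm, an absorptive epithelium that takes up maternal protein through the receptors LRP2 (megalin) and cubilin with the adaptor DAB2, and the parietal endoderm, which secretes basement membrane and the matrix protein SPARC. Definitive endoderm, which arises later at the primitive streak and gives rise to the gut, shares SOX17, FOXA2 and the GATA factors with it. In culture a minority of ESCs in serum can move towards a primitive endoderm-like state. In bulk RNA, fewer cells of a type and less RNA per cell cannot be told apart.

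Values are CPM, reads scaled to the effective size of the library. Each library's reads were worked out from the deposited group means, and the letters A and B stand for a group's libraries, since no replicate numbers came with them. Recovered totals ran from 6171778 to 7012347 reads, so that 1 read was worth 0.142 to 0.159 CPM and 0 reads would have allowed up to 0.426 to 0.477 CPM (3 reads). The intervals and this floor describe counting error alone, because without molecular identifiers a read is not an independent molecule. Whether the replicates were separate cultures is not stated by the labels, and p-values reflect only how far these samples spread, possibly for technical reasons. Libraries were made with either of 2 kits, 1 of them stranded, and which library had which is not given, so a kit difference between the groups cannot be told apart from the treatment. Of the 9 genes 5 (Cubn, Dab2, Gata6, Pdgfra and Sox17) overlap an annotated gene on the opposite strand, whose reads cannot be told apart without strand. Arid1a itself lay at 517 and 502 CPM in the ethanol libraries and at 241 and 213 CPM in the 4-OHT libraries, a log2 fold change of -1.16 (SE 0.066, limma adjusted p = 7.33e-06). All 10 ESC markers examined were detected in every library, with summed levels of 3854 to 3982 CPM in ethanol and 4045 to 4245 CPM with 4-OHT. At a limma adjusted p under 0.05, 3 of them rose (Nanog, Tdgf1 and Fgf4), 2 fell and 5 did not pass. Over all tested genes 5.25% rose and 4.20% fell. The markers that fell were Sox2, from a mean of 338 to 291 CPM, and Esrrb, from 203 to 169 CPM.

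The comparison asked whether endoderm genes change when Arid1a is deleted in ESCs. With 4-OHT, 2 of the 9 genes rose, Lrp2 and Sparc, 0 fell (also 0 at an unadjusted p under 0.05, and 0 in edgeR and DESeq2) and 7 did not pass the threshold (limma on log2(CPM + 1), adjusted p under 0.05 over all 14373 tested genes). Among all tested genes 5.25% rose and 4.20% fell. Both genes that rose are effectors, with levels 1.22 and 1.18 times higher from 3433 or more reads per group. Of the 4 measured transcription factors 0 passed in limma (1 at an unadjusted p under 0.05, 1 in edgeR and 0 in DESeq2), and these had 12 to 55 reads per group. The median log2 fold change of the 9 genes was 0.28, against -0.0015 over all tested genes. In 5 of the 9 genes both 4-OHT libraries lay above both ethanol libraries, as they did in 26.4% of all tested genes, and in 0 of the 9 did they lie below (25.7% of all). The same fit with an edgeR quasi-likelihood test on the recovered reads called 4 of 8 tested genes higher, adding Cubn and Sox7, the latter let through its read filter by the 4-OHT libraries alone (of all genes it tested 8.13% rose and 7.64% fell).

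**Figure D1:**
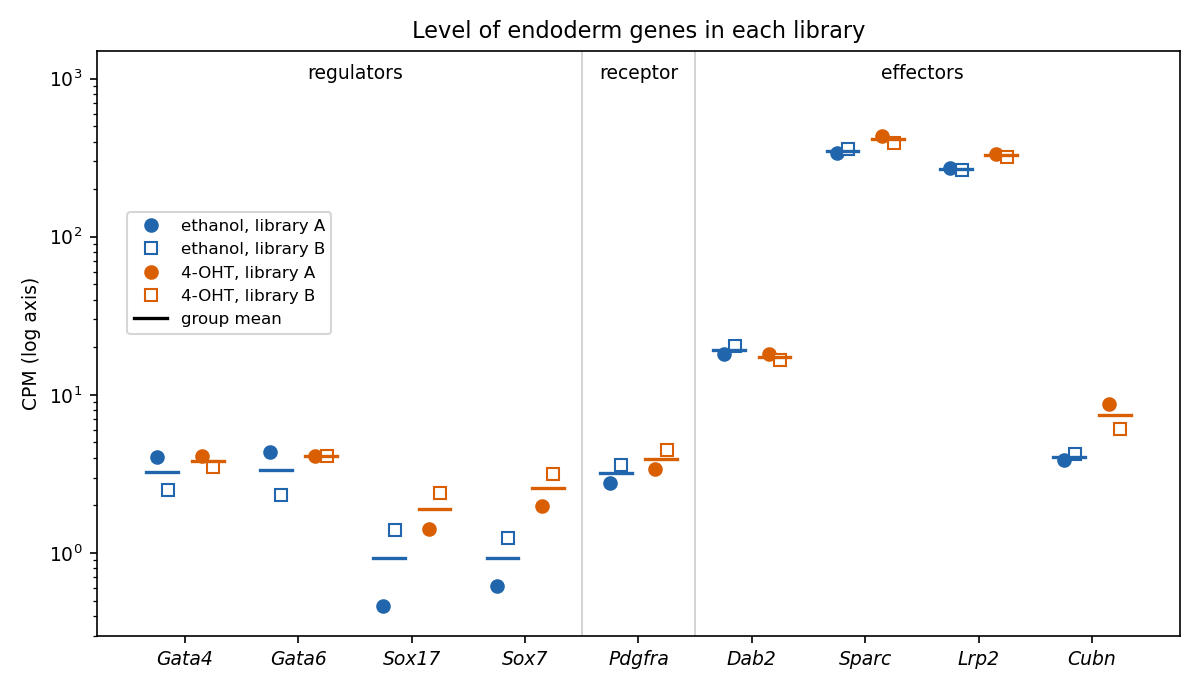
CPM (log axis) of the 9 measured endoderm genes in each library, ethanol in blue and 4-OHT in orange; filled circles are library A, open squares library B and bars the group mean. Sparc and Lrp2 lie above 260 CPM in every library, whereas the 4 transcription factors, Pdgfra and Cubn lie below 10 CPM.

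The endocytic receptor Lrp2 was the clearest rise. Lrp2 (ENSMUSG00000027070, mm10 chromosome 2, 69424340 to 69586065, minus strand) encodes megalin, a giant receptor of the LDL receptor family that binds vitamin carriers, lipoproteins and morphogens. It had 271 and 263 CPM in the ethanol libraries and 334 and 319 CPM in the 4-OHT libraries, so the groups did not overlap. The mean went from 267 ± 5.27 to 326 ± 10.4 CPM (SD, n = 2 per group), a log2 fold change of 0.29 (SE 0.055, limma adjusted p = 0.00873). Leaving out ethanol library B, 4-OHT library A or 4-OHT library B ended this call in limma (adjusted p = 0.0684, 0.182 and 0.156), while edgeR called Lrp2 without any 1 of the 4 libraries (edgeR adjusted p from 4.94e-05 to 0.0366). Without 4-OHT library A or B limma called 0 genes of the whole table, Arid1a among those lost, with 2504 and 2517 genes at an unadjusted p under 0.05, where edgeR called 1586 and 1781.

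Cubn (chromosome 2, 13276338 to 13491813, minus strand) encodes cubilin, which has no membrane anchor of its own and works with amnionless and LRP2. In ethanol 25 and 27 reads were found, and with 4-OHT 62 and 38 reads. In CPM these were 3.87 and 4.21 against 8.81 and 6.04, with no overlap and with the 4-OHT libraries farther from each other than the ethanol ones. The ratio of the group levels was 1.86, with a counting interval of 1.31 to 2.65. The log2 fold change of 0.72 (SE 0.21) did not pass in limma (adjusted p = 0.0596), and edgeR called it higher (edgeR adjusted p = 0.00646) whereas DESeq2 did not (DESeq2 adjusted p = 0.330). In edgeR the call was lost without ethanol library A (edgeR adjusted p = 0.0643) and without 4-OHT library A (edgeR adjusted p = 0.265).

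Dab2 (chromosome 15, 6299788 to 6440712) encodes the clathrin adaptor that carries both receptors into the cell. It was the only 1 of the 9 genes with a lower mean with 4-OHT, and its groups overlapped. The ethanol libraries had 18.1 and 20.4 CPM and the 4-OHT libraries 18.2 and 16.5 CPM, a log2 fold change of -0.14 (SE 0.13, limma adjusted p = 0.562). Its counting interval of the ratio ran from 0.752 to 1.08.

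Sequences upstream of the receptor genes Lrp2 and Cubn are shown because Lrp2 rose, and Cubn is the partner of LRP2 with the larger but less precise difference. They come from windows of 250 bases before the RefSeq start (GRCm38.p6, the same assembly as mm10) and are written 5′ to 3′ on the gene's own minus strand, with CG dinucleotides in capitals. RefSeq and Gencode place the starts differently. The RefSeq start of Lrp2 lies 36 bases inside the Gencode gene, and the 214 bases before the Gencode exon are shown (chr2:69586066-69586279). The capital C at their end belongs to a CG whose G is exonic and not shown. The RefSeq start of Cubn lies 63 bases before the Gencode gene, and the whole window is shown (chr2:13491877-13492126). The RefSeq start of Sparc lies 3103 bases inside the Gencode gene, and as 238 bases of its window are exonic in other Gencode transcripts, it is not shown.
Lrp2: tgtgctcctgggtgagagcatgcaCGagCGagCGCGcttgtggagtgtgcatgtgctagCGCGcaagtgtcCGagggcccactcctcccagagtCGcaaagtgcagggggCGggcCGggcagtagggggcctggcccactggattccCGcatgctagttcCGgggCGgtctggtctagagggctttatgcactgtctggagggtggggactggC
Cubn: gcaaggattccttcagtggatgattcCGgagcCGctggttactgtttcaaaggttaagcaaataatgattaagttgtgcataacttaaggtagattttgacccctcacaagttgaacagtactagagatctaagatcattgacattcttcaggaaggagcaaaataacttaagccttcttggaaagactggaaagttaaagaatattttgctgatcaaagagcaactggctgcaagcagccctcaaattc

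The receptor partners differ in base composition upstream of their RefSeq starts. The whole Lrp2 window is 66.4% G and C with 18 CG dinucleotides, 13 of them in the bases shown, and the Cubn window is 39.6% with 2, against a median of 52.4% and 6 over 32851 windows of this length. The Sparc window, at 54.0% with 4, is near that median. The letters GATAA (the core bound by GATA factors), ACAAT (by SOX factors) and TGANTCA (by AP-1), searched on both strands, were looked for in all 6 windows of the 5 measured members that have one (Lrp2, Cubn, Sparc, Pdgfra and Dab2). GATAA was in 1 of the 6, a window of Dab2, at 178 to 174 bases before the start, and the other 2 motifs were in 0. Over all windows the 3 motifs were found in 22.6%, 27.7% and 6.75%.

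Sparc encodes a secreted, collagen-binding matrix glycoprotein that parietal endoderm makes in quantity and that fibroblasts also make. Sparc (ENSMUSG00000018593, chromosome 11, 55394500 to 55423183, minus strand) had 341 and 359 CPM in ethanol and 435 and 391 CPM with 4-OHT. The groups did not overlap, and 4-OHT library A was the highest. The mean rose from 350 ± 12.9 to 413 ± 31.1 CPM (SD, n = 2 per group), a log2 fold change of 0.24 (SE 0.064, limma adjusted p = 0.0446). This call lay close to the threshold. It was lost in limma with a pseudocount of 0.1 CPM (adjusted p = 0.0673) and without each of the 4 libraries (adjusted p from 0.0791 to 0.295). In edgeR it was lost without ethanol library A (edgeR adjusted p = 0.162) and without 4-OHT library A (edgeR adjusted p = 0.0972).

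Of 22 fibroblast marker genes 15 were measured, and 0 of these were at 0 reads in all 4 libraries. Their summed level was 321 to 326 CPM in ethanol and 305 to 314 CPM with 4-OHT. The markers changed in both directions, as 2 rose, 2 fell and 11 did not pass in limma (1 and 1 in DESeq2). The limma shares over all tested genes were 5.25% higher and 4.20% lower. Col1a2, a fibrillar collagen chain gene, rose from 20.8 ± 1.63 to 45.0 ± 3.56 CPM, and Thy1, a surface glycoprotein gene, rose from 1.40 ± 0.226 to 3.25 ± 0.575 CPM. The call of Thy1 was lost in limma without each of the 4 libraries, and in edgeR without ethanol library A, ethanol library B or 4-OHT library B. Fbln1, a matrix glycoprotein gene, fell from 75.5 ± 1.96 to 49.1 ± 0.472 CPM. The part of feeder RNA in the levels of Sparc and Pdgfra was not tested.

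**Figure D2:**
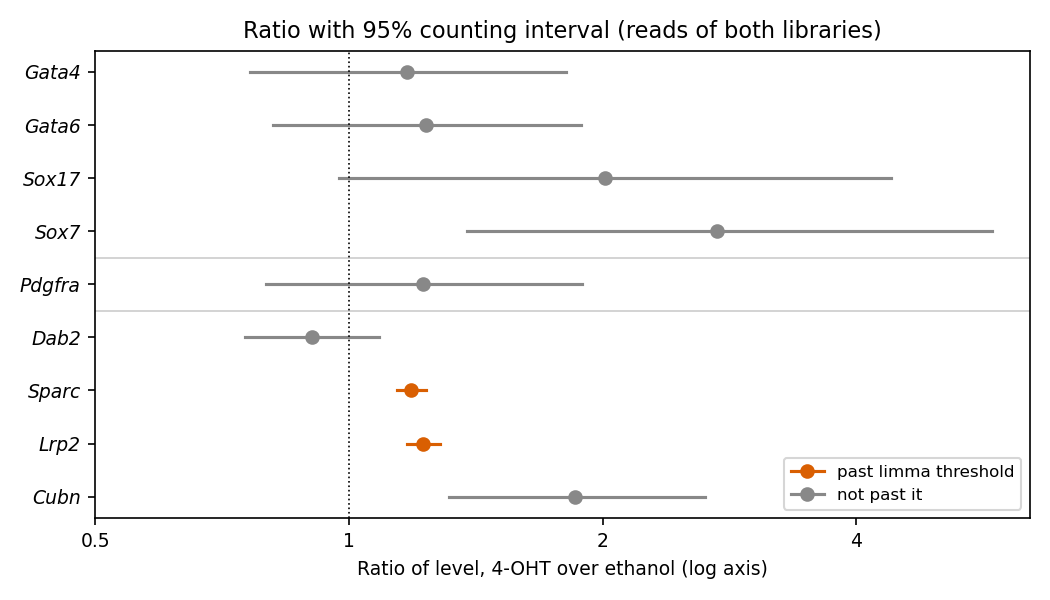
Ratio of the group levels, 4-OHT over ethanol (log axis), for each measured endoderm gene; lines are 95% counting intervals from the reads of both libraries of a group, which cover counting error only, and orange marks genes past the limma threshold. The intervals of Sox7, Sparc, Lrp2 and Cubn lie above 1, and those of Gata4, Gata6, Sox17, Pdgfra and Dab2 include 1.

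Among the transcription factors the groups overlapped for the GATA genes and not for the SOX genes. The counting intervals of all their ratios overlapped, and a difference between the SOX and GATA genes was not tested. Sox7 (ENSMUSG00000063060, chromosome 14, 63943673 to 63950732, plus strand) encodes a SOXF factor of primitive endoderm and endothelium. In ethanol 4 and 8 reads were found and with 4-OHT 14 and 20 reads, or 0.620 and 1.25 CPM against 1.99 and 3.18 CPM. The groups did not overlap, and the ratio of 2.73 had a counting interval of 1.38 to 5.80. Its log2 fold change of 0.89 (SE 0.25) on the CPM + 1 scale, the largest of the 9 genes, did not pass in limma (adjusted p = 0.0571). It passed in limma when genes under a mean of 1 CPM were left out (adjusted p = 0.0199; 7.85% of all genes then tested rose) and in edgeR (edgeR adjusted p = 0.020), and not in DESeq2 (DESeq2 adjusted p = 0.443). With an ethanol mean of 0.934 CPM, Sox7 cleared the 1 CPM filter only through its 4-OHT level, and the same holds for the read filter of edgeR (about 10 reads in 2 libraries), so neither pass adds support. In edgeR it was lost without ethanol library A (edgeR adjusted p = 0.303) and without 4-OHT library B (edgeR adjusted p = 0.245).

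Sox17, a SOXF factor required for primitive and definitive endoderm, had 3 and 9 reads in ethanol and 10 and 15 reads with 4-OHT. In CPM these were 0.465 and 1.40 against 1.42 and 2.38, so that the highest ethanol library and the lowest 4-OHT library nearly met. The ratio was 2.01, with a counting interval of 0.973 to 4.39, and the log2 fold change of 0.61 (SE 0.28) did not pass (limma adjusted p = 0.224).

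Gata4, a zinc finger factor of primitive endoderm and heart, had 4.03 and 2.50 CPM in ethanol and 4.12 and 3.50 CPM with 4-OHT. Gata6, its relative that acts earliest in the lineage, had 4.34 and 2.34 CPM in ethanol and 4.12 and 4.13 CPM with 4-OHT. For both genes the groups overlapped, with ethanol library A close to or above the 4-OHT libraries and ethanol library B below them. The log2 fold changes of 0.19 (SE 0.23) and 0.28 (SE 0.24) did not pass (limma adjusted p = 0.666 and 0.540), and both turned negative without ethanol library B (-0.07 and -0.06). The counting intervals of the ratios, 0.764 to 1.81 for Gata4 and 0.813 to 1.88 for Gata6, were wide and do not show that the levels were equal. Gata4 and Sox7 are neighbours on chromosome 14, 672 kb apart.

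In these few reads the ethanol libraries placed the GATA pair and the SOX pair in opposite order. The pairs were not among the planned lists, and their order was not tested. The reads of Gata4 and Gata6 together numbered 54 in ethanol library A and 31 in B, whereas those of Sox7 and Sox17 together numbered 7 and 17. With 4-OHT they numbered 58 and 48 for the GATA pair and 24 and 35 for the SOX pair. Summed over the 4 factors, the levels were 9.45 and 7.49 CPM in ethanol and 11.7 and 13.2 CPM with 4-OHT. These sums rest on 48 to 83 reads a library.

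Pdgfra, the receptor for PDGF-A that marks primitive endoderm and is also high in fibroblasts, had 2.79 and 3.59 CPM in ethanol and 3.41 and 4.45 CPM with 4-OHT. The groups overlapped, and the log2 fold change of 0.23 (SE 0.21) did not pass (limma adjusted p = 0.561; ratio 1.22, counting interval 0.797 to 1.89). Its ligand gene Pdgfa was more abundant in reads, with 486 in ethanol and 545 with 4-OHT, and did not pass either (limma adjusted p = 0.523).

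Per length, the effectors did not form a single class. Dividing by the exonic length of the Gencode basic models gave 129 ± 4.75 CPM per kb for Sparc, 16.1 ± 0.318 for Lrp2 and 3.70 ± 0.312 for Dab2 in ethanol (SD, n = 2). Gata6 and Gata4 followed at 1.03 ± 0.437 and 0.896 ± 0.298 CPM per kb, and their libraries overlapped. Cubn, at 0.359 ± 0.0212 CPM per kb, lay with Pdgfra, Sox7 and Sox17 (0.364, 0.283 and 0.228 CPM per kb), whose libraries overlapped those of the next gene in the order. Its length of 11.3 kb gives Cubn read numbers near those of the shorter Gata genes, so that of the named effectors only Sparc, Lrp2 and Dab2 exceeded every regulator per length. With 4-OHT the first 5 places were the same, and Sox7 at 0.783 ± 0.255 and Cubn at 0.659 ± 0.174 CPM per kb came before Sox17 and Pdgfra. Within every library Lrp2 had 37.9 or more reads for each read of Cubn.

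Among other endoderm genes more fell than rose. Of 58 other endoderm genes 48 were measured, and 4 rose, 14 fell and 30 did not pass in limma (2 and 13 in DESeq2). Over all tested genes 5.25% rose and 4.20% fell. Of the 14 falls, 8 were in the list of the parietal endoderm and its matrix. The median of the 48 was -0.20 on the log2 scale, against -0.0015 over all tested genes. Of 16 measured genes of the visceral endoderm 0 rose, 2 fell and 14 did not pass in limma (2 higher and 2 lower at an unadjusted p under 0.05, and 0 and 2 in both edgeR and DESeq2). Those that fell were Spink1, a secreted protease inhibitor gene, from 14.8 ± 1.58 to 6.55 ± 0.623 CPM, and Cldn6, a tight junction gene, from 78.4 ± 2.94 to 58.6 ± 1.13 CPM. Hnf4a, which encodes a nuclear receptor that drives visceral endoderm genes, had 9 reads in ethanol and 23 with 4-OHT and did not pass (limma adjusted p = 0.114). It was chosen after its values were seen.

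Of 17 genes of the parietal endoderm and its matrix, 8 fell, 2 rose and 7 did not pass in limma (7 and 1 in DESeq2). Among all 14373 tested genes limma called 4.20% lower and 5.25% higher, and DESeq2 called 318 lower and 382 higher. Nid2, which encodes the basement membrane linker nidogen-2, had 393 and 386 CPM in ethanol and 184 and 179 CPM with 4-OHT, a log2 fold change of -1.10 (SE 0.054, limma adjusted p = 3.89e-06). Col4a2, a collagen IV chain gene, fell from 68.2 ± 6.73 to 42.1 ± 1.98 CPM. Pth1r, the parathyroid hormone receptor gene that marks parietal endoderm, went the other way, from 7.62 ± 0.914 to 18.0 ± 1.13 CPM (limma adjusted p = 0.00142). Sparc, which is secreted into the same matrix, rose while these matrix genes fell. The summed level of the list was 3442 to 3549 CPM in ethanol and 2707 to 2810 CPM with 4-OHT. Whether these reads came from endoderm-like cells, other ESCs or feeders was not tested.

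Of 16 measured genes of the definitive and anterior endoderm, 2 rose, 4 fell and 10 did not pass in limma (3 and 5 in edgeR, 1 and 4 in DESeq2). Shares of all tested genes were 5.25% higher and 4.20% lower in limma, and 8.13% and 7.64% in edgeR. Frzb, a secreted WNT inhibitor gene, went from 9 to 43 reads (0.699 ± 0.327 to 3.22 ± 0.277 CPM), a rise that DESeq2 did not call. Frzb and Dkk1, both called higher by edgeR, cleared its read filter only through their 4-OHT libraries. Those edgeR calls therefore add no support. Otx2, a homeobox gene of anterior visceral endoderm and of primed epiblast, rose from 9.94 ± 3.03 to 24.0 ± 4.69 CPM, and the keratin gene Krt19 fell from 33.1 ± 1.17 to 12.6 ± 1.66 CPM. The definitive endoderm genes Mixl1 and Eomes were among those that did not pass (limma adjusted p = 0.950 and 0.914). Gsc had 4 reads in ethanol and 13 with 4-OHT, and Dkk1 had 16 and 43. Neither passed (limma adjusted p = 0.157 and 0.0640). Over the list both 4-OHT libraries lay above both ethanol libraries in 4 genes (26.4% of all tested genes). They lay below in 8 (25.7% of all).

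**Figure D3:**
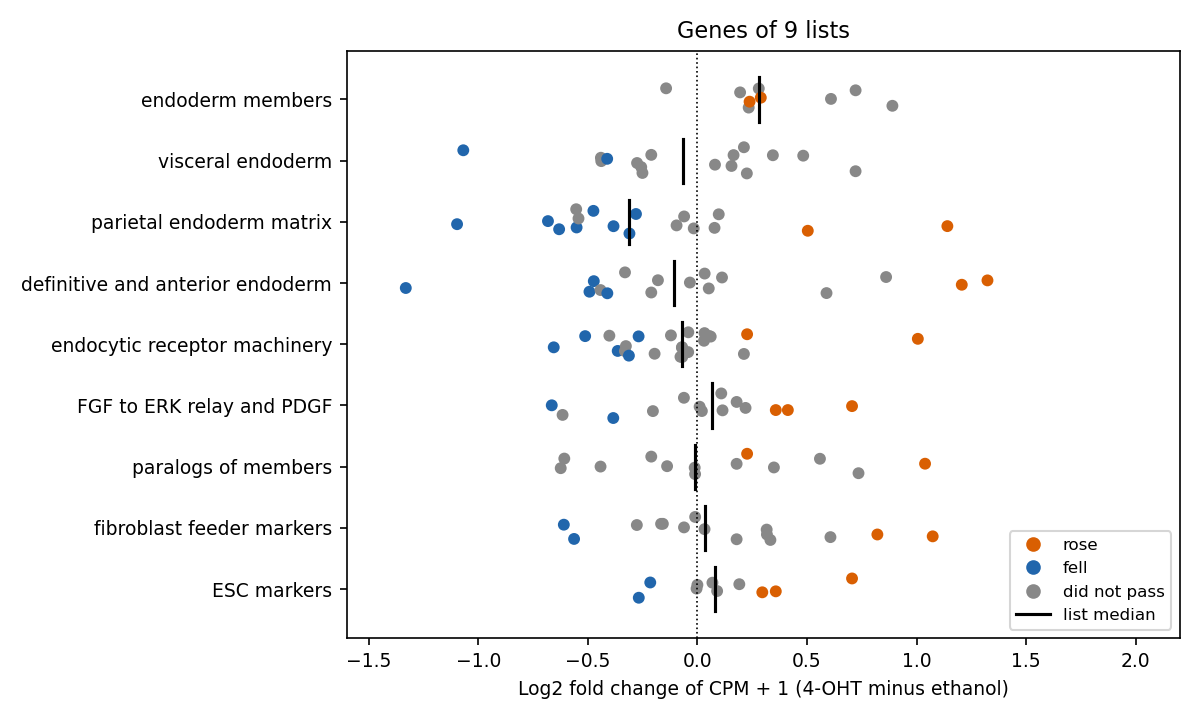
Change with 4-OHT in log2(CPM + 1), relative to ethanol, of the measured genes of each list; each point is a gene, orange rose, blue fell and grey did not pass in limma, and black bars are list medians, with vertical scatter only to separate points. The 9 endoderm members have a median of 0.28 and the 17 parietal matrix genes a median of -0.31.

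Most partners of LRP2 and cubilin did not pass the test. Of 24 genes for endocytic adaptors, clathrin and related receptors, 2 rose, 5 fell and 17 did not pass in limma (2 and 6 in edgeR, 0 and 2 in DESeq2), with a median log2 fold change of -0.07. For comparison, 5.25% of all tested genes rose and 4.20% fell in limma, and 8.13% and 7.64% in edgeR. The list's largest fall was in Lrpap1, which encodes RAP, the chaperone that keeps LRP2 and its relatives free of ligand in the secretory pathway. It had 207 and 206 CPM in ethanol and 137 and 125 CPM with 4-OHT (log2 fold change -0.66, SE 0.064, limma adjusted p = 0.000250). For each Lrpap1 read there were 1.31 and 1.28 Lrp2 reads in the ethanol libraries and 2.44 and 2.55 in the 4-OHT libraries. Ap2m1, a subunit gene of the clathrin adaptor AP-2, fell from 71.1 and 71.6 CPM in ethanol to 49.7 and 49.7 CPM with 4-OHT. Vldlr, the very low density lipoprotein receptor gene, rose from 3.81 ± 0.312 to 8.65 ± 0.577 CPM, also not called by DESeq2. Amn, which encodes amnionless, was at 4.12 ± 0.349 and 4.93 ± 0.459 CPM and did not pass (limma adjusted p = 0.555).

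**Figure D4:**
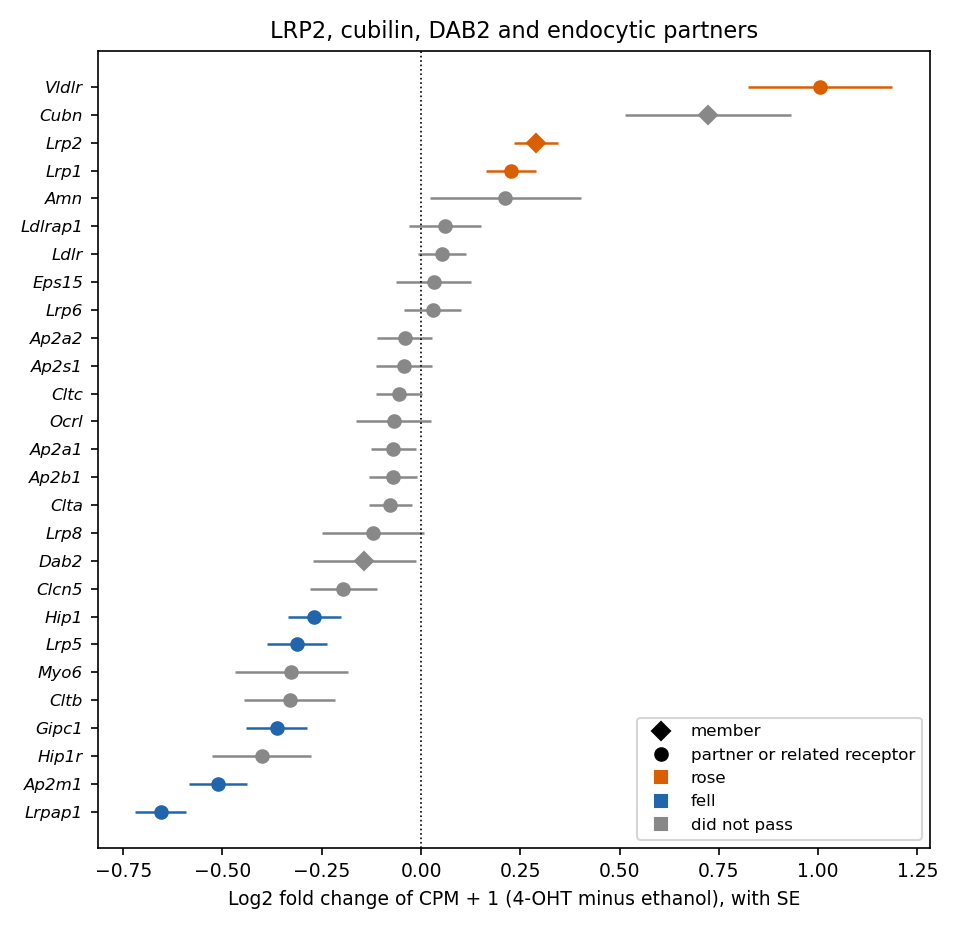
Change with 4-OHT in log2(CPM + 1), relative to ethanol, with its SE for Lrp2, Cubn and Dab2 (diamonds) and 24 endocytic partners or related receptors (circles); orange rose, blue fell and grey did not pass in limma. Lrp2 lies at 0.29 and its chaperone gene Lrpap1 at -0.66.

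Genes of the signal that sets primitive endoderm changed in both directions. The list joins the FGF to ERK relay, PDGF signalling and Nanog. Of its 14 measured genes 3 rose, 2 fell and 9 did not pass in limma (3 and 3 in edgeR, 3 and 2 in DESeq2). Limma called 5.25% of all tested genes higher and 4.20% lower, and edgeR called 8.13% and 7.64%. Fgf4, the ligand gene, rose from 45.1 and 47.6 CPM in ethanol to 76.2 and 76.1 CPM with 4-OHT. Shc1, an adaptor gene of the relay, rose from 156 ± 1.71 to 208 ± 15.9 CPM. Fgfr2, a receptor that primitive endoderm cells express, fell from 49.5 ± 2.30 to 30.9 ± 1.17 CPM. Nanog, whose product opposes Gata6, was the third of the 3 that rose, from 309 and 318 CPM in ethanol to 403 and 402 CPM with 4-OHT. Fgf4 and Nanog also stand among the ESC markers that rose.

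Most relatives of the 9 genes did not pass. Of 13 measured paralogs 2 rose, 0 fell (2 at an unadjusted p under 0.05) and 11 did not pass in limma, edgeR called 1 higher and 2 lower, and DESeq2 called 0. In limma 5.25% of all tested genes rose and 4.20% fell. Sparcl1, a relative of Sparc, had 0 and 2 reads in ethanol and 8 and 10 reads with 4-OHT (ratio 8.69, counting interval 2.08 to 77.2; limma adjusted p = 0.0222). In limma this call was lost without ethanol library A, 4-OHT library A or 4-OHT library B (log2 fold change 0.84 to 1.23 over the libraries left out). With all libraries edgeR did not test Sparcl1, and DESeq2 did not call it (DESeq2 adjusted p = 0.281). Lrp1, a receptor related to Lrp2, rose from 131 ± 6.22 to 153 ± 1.06 CPM (limma adjusted p = 0.0467), and in limma the call was lost without each of the 4 libraries. Gata2 and Gata3, which act in trophoblast and blood, lay at 5.75 and 6.61 CPM in ethanol and 3.39 and 4.00 CPM with 4-OHT. For each, both 4-OHT libraries lay below both ethanol libraries, as in 25.7% of all tested genes. Neither passed in limma (adjusted p = 0.0696 and 0.0845). Both were lower in edgeR (edgeR adjusted p = 0.0406 and 0.0357), which called 7.64% of its tested genes lower. They were named after their values were seen. A difference from Gata4 and Gata6, whose groups overlapped, was not tested.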

How the data were processed

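Reads of 4 polyA RNA libraries had been processed by the authors with FastQC, Trimmomatic, HISAT2 and edgeR on the mm10 build, per the submitters' processing notes; the sources used here give no versions, read counter or strand setting. The deposited table gives each group's mean CPM, and a log2 fold change and an adjusted p-value from the authors. The authors' log2 and p-value columns are out of register with the gene rows and were used for no gene. Each mean CPM is a sum of whole reads of 2 libraries times 2 steps set by their effective sizes. With both steps fitted to low values, 100% of 14382 values in each column came out whole to the printed digits, against 0.233% of 3000 values moved at random. A single pair of reads was possible for 99.8% (ethanol) and 99.9% (4-OHT), and 27 and 13 more were resolved by a limit of 2-fold between libraries. The other 9 values left 14373 genes to test, members included. Replicates of a group differed by more than counting noise (chi-square per gene 1.63 and 1.93).

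The main test was limma-trend 3.58.1 (R 4.3.3) on log2(CPM + 1), two-sided, Benjamini-Hochberg over all tested genes, with no filter on low values. Alternatives were edgeR 4.0.16 (quasi-likelihood) and DESeq2 1.42.0 on the recovered reads, size factors of DESeq2, a pseudocount of 0.1 CPM, a minimum mean of 1 CPM and leaving out each library. In a simulation of this comparison over 14373 genes, with 200 genes above a mean of 2 CPM changed, limma recovered 75 of 100 changed 2-fold and 100 of 100 changed 4-fold, edgeR 88 and 100, and DESeq2 74 and 99, with 0, 10 and 1 false calls. The simulated spread between replicates was the same for every gene and was not estimated from these libraries. The recovery rates do not cover genes under a mean of 2 CPM, such as Sox7 and Sox17. Nor do they cover changes below 2-fold, such as those of Lrp2 and Sparc. Counting intervals are exact at 95% on reads of both libraries. Exonic lengths and coordinates are from Gencode M21 basic annotation of mm10 (1-based), and upstream sequences from RefSeq, which matched 6 of the 10 members. Genes named by rule are all members, Arid1a, and up to 3 called genes of largest change per list. Pdgfa, Amn, Mixl1, Eomes, Gsc, Dkk1, Hnf4a, Gata2, Gata3, Sox2 and Esrrb were named outside this rule, with the results known. Members and lists were chosen with earlier results of these data known.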

Additional observations from a re-analysis of the deposited data

How the results depend on the processing

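The count of endoderm members past the threshold, 2 in the main fit, was 1 with a pseudocount of 0.1 CPM (Lrp2), 4 with a minimum mean of 1 CPM and 4 in edgeR (Lrp2, Sparc, Cubn and Sox7 in both, where Sox7 cleared the filter only through its 4-OHT level), and 2 with DESeq2 or with its size factors. Leaving out 1 library gave 0 to 4 over limma and edgeR, and 0 members fell under any of these settings. Over all genes limma called 1358, edgeR 2043 and DESeq2 700, and leaving out 1 library gave 0 to 1781, the 0 from limma without either 4-OHT library. The log2 fold changes of Gata4 and Gata6 reversed without ethanol library B (-0.068 and -0.059 in limma, -0.075 and -0.072 in edgeR), and ranged from -0.07 to 0.61 and from -0.07 to 0.81 over the libraries left out. The cause of these shifts was not tested. Of the 21 genes of other lists named by rule, 96 of 103 values under the other settings with all libraries kept direction and call. The other 7 kept direction only (Frzb, Vldlr and Sparcl1 with DESeq2, and Lrp1 and Thy1 with DESeq2 and with the lower pseudocount). This count leaves out the fits without 1 library, where these genes kept direction but many of their limma calls were lost. Sox7, Sox17, Gata4, Gata6, Pdgfra and Cubn had 12 to 100 reads per group, and the part of depth in their missed calls was not tested. No paired analysis was possible because the columns carry no replicate numbers.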
